A study of Arabidopsis thaliana with 8 samples.

Results

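The 4 genes of the histone variant H2A.Z in Arabidopsis thaliana, HTA9, HTA11, HTA8 and HTA4, were described across 8 RNA-seq libraries of whole rosettes, of which 4 came from hta9 hta11 plants and 4 from wild-type plants, all of the accession Col-0. The members were taken by their locus identifiers, and all 4 of them were found among the 36796 genes of the count table. The rosettes were taken at 17 days of age, before bolting, from plants grown at 22 °C under 16 hours of light and 8 hours of dark. A library pooled 5 plants collected 6 hours after lights on, so a library gives the mean over its plants and not the level in any 1 plant. The kind and position of the hta9 and hta11 mutations do not appear in the sources used here, so reads of HTA9 or HTA11 in hta9 hta11 need not come from complete transcripts.

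H2A.Z replaces H2A in a part of all nucleosomes, mostly those at the start of genes and, in plants, along the bodies of genes that respond to the environment. The SWR1 complex exchanges H2A for H2A.Z, and loss of H2A.Z or of SWR1 subunits is known in this species for early flowering and low FLC. HTA8, HTA9 and HTA11 encode closely related H2A.Z proteins that act in part redundantly.

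HTA9 (AT1G52740) lies on the plus strand at chr1:19645236-19646485, HTA11 (AT3G54560) on the plus strand at chr3:20196140-20197726, HTA8 (AT2G38810) on the minus strand at chr2:16219220-16220928 and HTA4 (AT4G13570) on the plus strand at chr4:7884516-7885982 (RefSeq annotation of TAIR10.1). HTA9 and HTA11 shared 74.8% of aligned coding bases and 85.1% of aligned residues. HTA11 and HTA8 were the most alike, at 81.8% of bases and 90.4% of residues, and HTA9 and HTA8 shared 72.6% and 80.6%. HTA4 shared 54.8% to 62.1% of aligned residues with the other members. The first 120 coding bases of each gene, joined across the intron where there is one, show how the members differ where their proteins begin. Capitals mark bases that differ from HTA9, or stand opposite a gap in HTA9, in the pairwise alignment of the coding sequences. Gaps are not drawn.
HTA9: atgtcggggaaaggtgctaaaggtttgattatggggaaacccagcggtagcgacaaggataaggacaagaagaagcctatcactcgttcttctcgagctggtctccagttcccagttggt
HTA11: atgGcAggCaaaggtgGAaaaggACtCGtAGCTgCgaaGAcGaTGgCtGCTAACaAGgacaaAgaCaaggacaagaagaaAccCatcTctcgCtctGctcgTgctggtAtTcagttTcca
HTA8: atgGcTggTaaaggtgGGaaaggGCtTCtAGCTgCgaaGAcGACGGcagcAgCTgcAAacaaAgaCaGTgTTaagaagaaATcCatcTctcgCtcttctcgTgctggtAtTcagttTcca
HTA4: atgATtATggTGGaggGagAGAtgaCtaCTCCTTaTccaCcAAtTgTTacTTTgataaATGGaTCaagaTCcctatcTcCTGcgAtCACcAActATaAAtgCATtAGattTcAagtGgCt
In this stretch HTA11 differed from HTA9 at 39 bases, HTA8 at 41 and HTA4 at 59, with bases opposite a gap in HTA9 included. The spans on the genome, introns included, are chr1:19645409-19645936, chr3:20196532-20197175, chr2:16219735-16220679 and chr4:7884582-7885409, in the order of the lines. The transcripts of HTA11 and HTA8 held in common no run longer than 29 bases, aatgcgagcaaggatctcaaagtgaagag. For HTA9 the longest run shared with HTA11 was 14 bases and with HTA8 17 bases.

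Library totals were 31611735 to 47467130 counts in hta9 hta11 and 32027511 to 40635454 counts in the wild type. Levels are given as CPM, counts of a gene scaled to a common library size (TMM), and comparisons between genes as CPM per kb of exon. The summed CPM of 5 leaf markers was 29089 to 31467 in hta9 hta11 and 31116 to 34760 in the wild type, and that of the root markers was 60.7 to 95.1 CPM in hta9 hta11 and 69.7 to 116 CPM in the wild type. The 3 seed markers, none of them tested, summed to 0.174 to 0.248 CPM in hta9 hta11 and 0.0269 to 0.160 CPM in the wild type. The 3 shoot meristem markers summed to 6.88 to 8.87 CPM in hta9 hta11 and 6.12 to 7.12 CPM in the wild type. Of 4 flower markers 3 rose, as did 2.49% of all genes tested, with a sum of 3.07 to 7.75 CPM in hta9 hta11 and 1.86 to 2.24 CPM in the wild type. The 4 markers of dividing cells summed to 73.3 to 79.3 CPM in hta9 hta11 and to 68.8 to 81.7 CPM in the wild type. In hta9 hta11 libraries 1 to 4 the flower markers summed to 4.56, 7.75, 3.07 and 5.97 CPM and the markers of dividing cells to 74.0, 73.3, 78.4 and 79.3 CPM. The part of cell composition in the results below was not tested, and in whole rosettes fewer cells of a type and less RNA per cell cannot be told apart.

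The order of the members by level was clear in the wild type. Within each hta9 hta11 library HTA9 stood above HTA11, which was at 16.0% to 34.1% of it, while the place of HTA8 differed between libraries. Across the hta9 hta11 libraries HTA9 ran from 17.6 to 72.0, HTA8 from 15.4 to 23.1 and HTA11 from 2.81 to 24.5 CPM per kb of exon. The ranges of the detected members thus overlapped. In the wild type the ranges did not overlap, with HTA9 from 102 to 123, HTA11 from 36.3 to 51.0 and HTA8 from 16.4 to 20.7 CPM per kb. HTA9 averaged 37.2 ± 25.2 CPM per kb in hta9 hta11 and 113 ± 9.57 in the wild type (SD, n = 4 each), HTA11 11.0 ± 10.2 in hta9 hta11 and 42.3 ± 6.34 in the wild type, and HTA8 20.3 ± 3.40 in hta9 hta11 and 18.6 ± 2.07 in the wild type. HTA4 had 0 counts in each of the 8 libraries, which allows a level of up to 0.0633 to 0.0961 CPM in a library (3 counts, counting error only).

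HTA9 held 60.6, 14.8, 33.4 and 16.5 CPM in hta9 hta11 libraries 1 to 4, against 104, 91.5, 99.8 and 86.0 CPM in wild-type libraries 1 to 4. The groups did not overlap, but the mutant libraries were far apart, with library 1 high, library 3 between and libraries 2 and 4 low. HTA9 fell in hta9 hta11, to 31.3 ± 21.3 CPM against 95.3 ± 8.05 CPM in the wild type (SD, n = 4 each). On the log2 scale the change was -1.60 (SE 0.38; adjusted p = 0.0457 by edgeR's quasi-likelihood test with Benjamini-Hochberg adjustment). The call depended on the libraries used. When single libraries were left out, the call held only in the absence of hta9 hta11 library 1, at -2.15 with an adjusted p = 0.00234, and the other 7 fits gave an adjusted p = 0.0768 to 0.123.

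HTA11 held 26.0, 2.98, 14.1 and 3.60 CPM in hta9 hta11 libraries 1 to 4, against 54.1, 38.5, 45.4 and 41.6 CPM in wild-type libraries 1 to 4. The mutant libraries lay below all wild-type libraries, and in the same order as for HTA9, with library 1 highest and libraries 2 and 4 close together at the bottom. The log2 fold change was -1.93 (SE 0.56, 95% interval -3.17 to -0.70) and did not pass (adjusted p = 0.0924). Without hta9 hta11 library 1 it passed, at -2.73 (adjusted p = 0.0103), and leaving out any other single library did not make it pass. It also passed in limma-voom (-2.46, adjusted p = 0.0378).

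**Figure D1:**
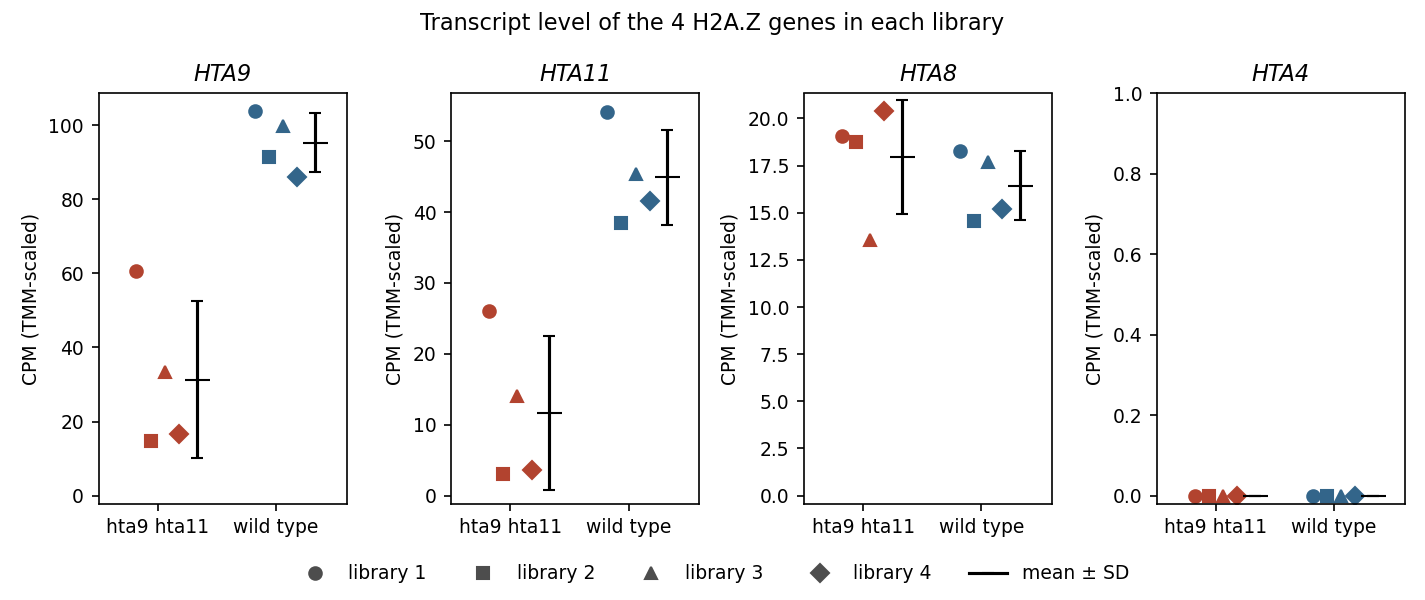
CPM of HTA9, HTA11, HTA8 and HTA4 in each library of hta9 hta11 (left in each panel) and wild type (right), with marker shapes for libraries 1 to 4 and bars for mean ± SD. HTA9 and HTA11 are lower in all 4 mutant libraries, with library 1 at 60.6 and 26.0 CPM as the highest of them; HTA8 overlaps between the groups and HTA4 is at 0.

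HTA8, an H2A.Z gene that the genotype does not name as mutated, held 19.1, 18.8, 13.6 and 20.4 CPM in hta9 hta11 libraries 1 to 4, against 18.3, 14.5, 17.7 and 15.2 CPM in wild-type libraries 1 to 4. The groups overlapped, and the lowest library of all was hta9 hta11 library 3. HTA8 averaged 17.95 ± 3.003 CPM in hta9 hta11 and 16.4 ± 1.83 CPM in the wild type (SD, n = 4 each). The difference on the log2 scale was 0.13, with a standard error of 0.13 (adjusted p = 0.665). The 95% interval ran from -0.16 to 0.42, that is from 0.896-fold to 1.34-fold, so a rise above 1.34-fold lies outside it. Without hta9 hta11 libraries 1 and 3, the ones with the most HTA9 and HTA11 transcript, the log2 fold change of HTA8 was 0.25 (95% interval -0.02 to 0.53, adjusted p = 0.31 in edgeR). With single libraries left out it ran from 0.06 to 0.24, the upper value being without hta9 hta11 library 3 (95% interval 0.01 to 0.47, adjusted p = 0.283).

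Set against the whole table, 1 of the 3 members tested passed, where 3.74% of the 20214 genes tested did. HTA9 and HTA11 showed no overlap with hta9 hta11 lower, as did 5.07% of all genes tested. Genes lower in hta9 hta11 that passed were 1.25% of all tested and genes higher 2.49%, and 6.23% of all genes tested lay higher in hta9 hta11 without overlap. HTA9 and HTA11 are the genes that the genotype names as mutated, so they are not like genes taken at random from the table. The cause of their lower read counts was not tested.

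Counted together, the H2A.Z genes kept a part of their transcript that differed widely among the mutant libraries. The sum per kb of exon was 118, 41.7, 68.3 and 46.1 CPM per kb in hta9 hta11 libraries 1 to 4, against 195, 161, 181 and 159 CPM per kb in wild-type libraries 1 to 4. As a share of the wild-type mean, the mutant libraries held 67.9%, 23.9%, 39.2% and 26.5%. The sum averaged 68.5 ± 35.1 CPM per kb in hta9 hta11 and 174 ± 17.2 CPM per kb in the wild type (SD, n = 4 each), a ratio of 0.394.

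The make-up of the sum changed along with its size. HTA8 made up 18.3%, 51.0%, 22.5% and 50.1% of the summed level in hta9 hta11 libraries 1 to 4, against 10.6%, 10.2%, 11.0% and 10.9% in the wild-type libraries. In libraries 2 and 4 of hta9 hta11 HTA8 was therefore the most abundant H2A.Z transcript, at 120% and 118% of the level of HTA9, against 29.97% and 38.7% in libraries 1 and 3 and 15.1% to 16.9% in the wild type. HTA9 made up 61.0%, 42.3%, 58.1% and 42.6% in hta9 hta11 libraries 1 to 4 and 63.3% to 67.3% in the wild type. HTA11 made up 20.8%, 6.75%, 19.4% and 7.37% in hta9 hta11 libraries 1 to 4 and 22.5% to 26.1% in the wild type. None of these ranges overlapped between the genotypes, but the shares of a library add up to 100%. With HTA9 and HTA11 lower and the level of HTA8 overlapping, a higher HTA8 share follows and is not a separate result. The level of HTA8 itself was 21.6, 21.2, 15.4 and 23.1 CPM per kb in hta9 hta11 libraries 1 to 4, against 16.4 to 20.7 CPM per kb in the wild type, so that libraries 1, 2 and 4 lay above the wild-type range and library 3 below it.

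**Figure D2:**
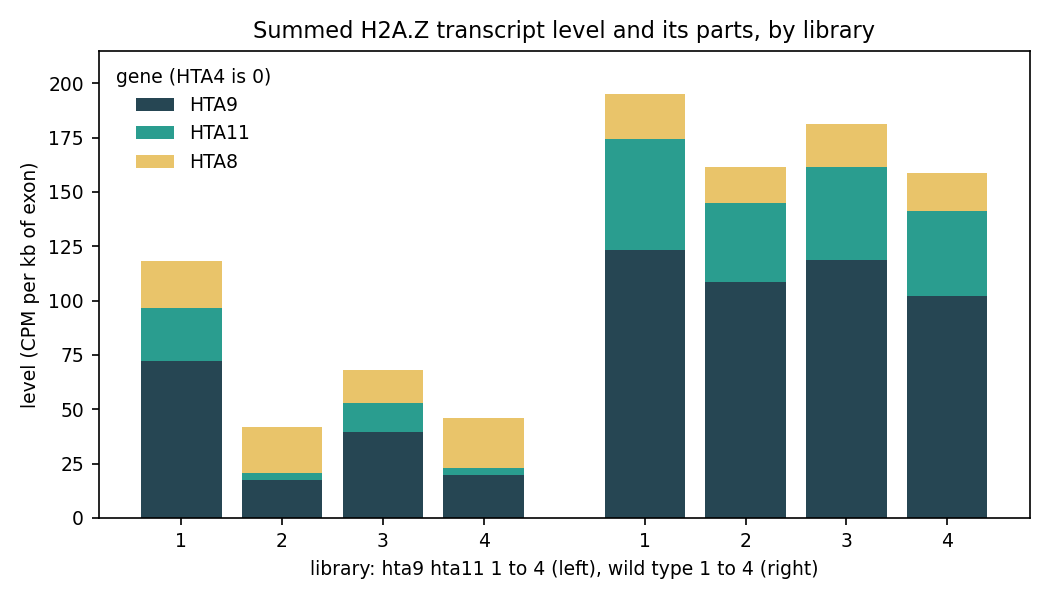
Bars give the summed H2A.Z level in CPM per kb of exon for each library, hta9 hta11 on the left and wild type on the right, divided into HTA9, HTA11 and HTA8. The mutant bars reach 41.7 to 118 and the wild-type bars 159 to 195, while the HTA8 part stays between 15.4 and 23.1 in all libraries.

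The mean level of HTA8 was 1.73 CPM per kb higher in hta9 hta11, where HTA9 and HTA11 together were lower by a mean difference of -107 CPM per kb. The difference in HTA8 was thus 1.61% of the loss in transcript of the mutated genes. With single libraries left out this share ran from 0.818%, without hta9 hta11 library 4, to 3.10%, without hta9 hta11 library 3. At the upper bound of its interval from all 8 libraries, the difference in HTA8 would be 6.26 CPM per kb, or 5.84% of that loss. The interval without hta9 hta11 libraries 1 and 3 reached higher, to 0.53 on the log2 scale. On the group means, HTA8 would have needed 6.77-fold its wild-type level for the mutant sum to reach that of the wild type. These values count all remaining HTA9 and HTA11 reads as transcript, and such reads need not come from complete transcripts.

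The residual HTA9 and HTA11 transcript was compared between the mutant libraries. HTA9 stood at 63.6%, 15.6%, 35.0% and 17.3% of its wild-type mean in hta9 hta11 libraries 1 to 4. HTA11 stood at 58.0%, 6.64%, 31.3% and 8.03% of its own. Of both genes library 1 held the most, library 3 came next, and libraries 2 and 4 held the least. The ratio of the mutated genes to each other also differed, with HTA11 at 34.1%, 16.0%, 33.5% and 17.3% of the level of HTA9 per kb in hta9 hta11 libraries 1 to 4, against 33.4% to 41.3% in the wild type.

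A few other genes were set beside this pattern, chosen with their values known. QQS, an orphan gene known for heritable expression differences tied to DNA methylation, stood at 73.1%, 3.73%, 45.4% and 1.91% of its wild-type mean in hta9 hta11 libraries 1 to 4, with libraries 1 and 3 above libraries 2 and 4. QQS did not pass (adjusted p = 0.312). FLC, the central repressor of flowering in the vernalization pathway, stood at 31.0%, 13.9%, 29.95% and 16.5% in the same libraries and fell by 2.13 on the log2 scale (adjusted p = 0.00322). MAF5, a further MADS-box repressor of flowering related to FLC, stood at 5.11%, 1.74%, 4.84% and 2.61% and fell (log2 fold change -4.79, adjusted p = 7.66e-05). FLC and MAF5 had the same order of mutant libraries as HTA9 and HTA11, at lower shares in library 1, where HTA9 was at 63.6% of the wild type and MAF5 at 5.11%.

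The genes whose profile over the 8 libraries was most like that of HTA9 were found by the root mean square difference of centred log2(CPM + 0.5) levels, among 18300 other tested genes with a mean of at least 1 CPM. They were the noncoding RNA gene AT4G04223 on chromosome 4 (difference 0.105), the protein-coding gene AT5G42280 on chromosome 5 (0.209), the noncoding RNA gene AT5G38005 on chromosome 5 (0.23) and the lncRNA gene AT2G06995 on chromosome 2 (0.257), none of them on the chromosome of HTA9. The median difference from HTA9 over all compared genes was 1.08. AT4G04223 stood at 64.7%, 13.9%, 30.4% and 13.7% of its wild-type mean in hta9 hta11 libraries 1 to 4. AT5G42280 stood at 43.3%, 0.773%, 26.0% and 0%, AT5G38005 at 58.0%, 3.39%, 16.3% and 5.24%, and AT2G06995 at 58.3%, 15.1%, 29.2% and 3.27%. These 4 genes had log2 fold changes of -1.69, -2.47, -2.21 and -1.88 and did not pass (adjusted p = 0.0568, 0.095, 0.0786 and 0.073 in edgeR). The first 3 of them were also the nearest to HTA11, at 0.391, 0.385 and 0.336, followed by HTA9 itself at 0.43, and HTA11 ranked at place 12 for HTA9. The added 0.5 CPM narrows differences near 0, and AT5G42280, at or near 0 in hta9 hta11 libraries 2 and 4, ranked before HTA11 on this scale.

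**Figure D3:**
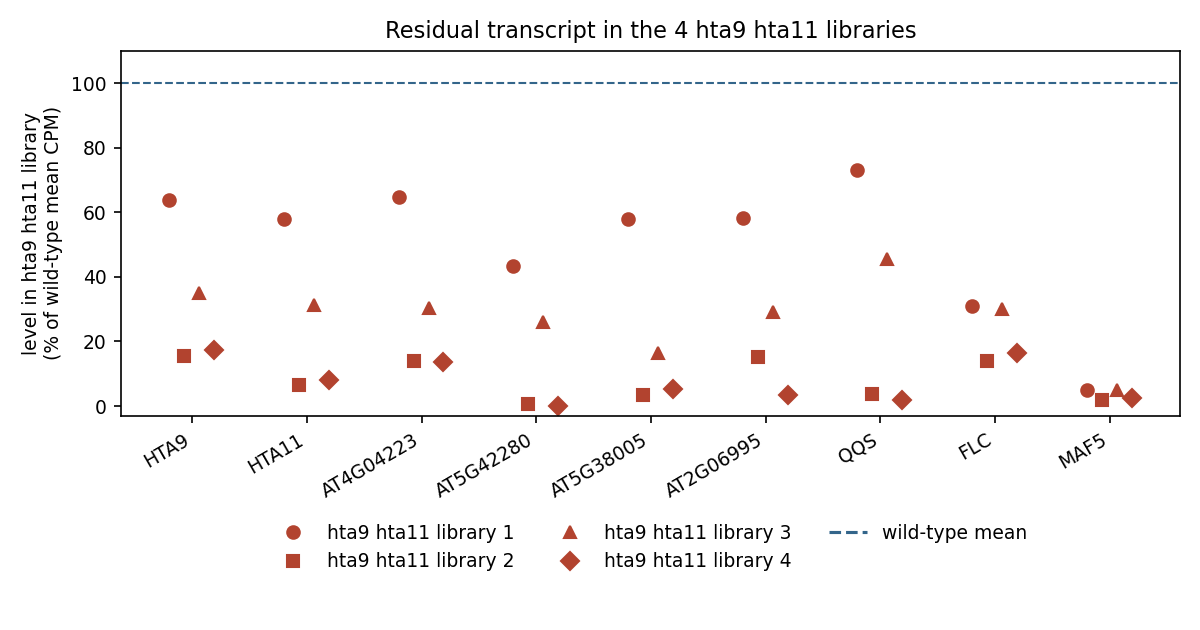
Level in each hta9 hta11 library as a percent of the wild-type mean CPM, for HTA9, HTA11, the 4 genes of most similar profile, QQS, FLC and MAF5; marker shapes give the library and the dashed line is the wild-type mean. Libraries 1 and 3 stand above libraries 2 and 4 for HTA9, HTA11, QQS, FLC and MAF5, and MAF5 lies between 1.74% and 5.11%.

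HTA8 ran from 13.6 CPM in hta9 hta11 library 3 to 20.4 CPM in hta9 hta11 library 4. The nearest to its profile were RPL16B, a ribosomal protein gene, at 0.0566, and AT3G28370 at 0.0631. Next came AT1G67860 at 0.0664 and AT1G07940, a gene for the translation elongation factor EF-1 alpha, at 0.069. All 4 were at their lowest in hta9 hta11 library 3, as was HTA8, which follows in part from their choice by profile. None passed (adjusted p = 0.834, 0.719, 0.675 and 0.76 in edgeR). RPL16B averaged 224 ± 35.3 CPM in hta9 hta11 and 214 ± 27.5 CPM in the wild type (SD, n = 4 each). Genes for elongation factors and ribosomal proteins have close copies, so the counts of these genes are uncertain.

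Genes next to the members were also examined, the 2 protein-coding genes on either side of each member, of which 11 of 16 were tested. In edgeR 1 passed, where 3.74% of all genes tested did, and 4 had an unadjusted p under 0.05, as did 18.0% of all genes tested. AT1G52730, which ends 24 bases before HTA9, had 34.5 ± 3.43 CPM in hta9 hta11 and 39.6 ± 2.21 CPM in the wild type (log2 fold change -0.20, adjusted p = 0.252). AT1G52770, the second gene after HTA9, had 21.1 ± 1.26 CPM in hta9 hta11 and 25.8 ± 1.08 CPM in the wild type, with no overlap (log2 fold change -0.29, adjusted p = 0.0543 in edgeR). Of all genes tested, 5.07% were likewise lower without overlap. UNE15, beside the undetected HTA4, had 7.57 ± 1.28 CPM in hta9 hta11 and 10.0 ± 2.14 CPM in the wild type (log2 fold change -0.41, adjusted p = 0.228). The gene that passed was AT4G13575, the second after HTA4, which fell to 12.7 ± 2.30 CPM in hta9 hta11, against 20.3 ± 2.82 CPM in the wild type (log2 fold change -0.68, adjusted p = 0.0314). With single libraries left out it passed without hta9 hta11 library 1 or 3 or wild-type library 3, and the other 5 fits gave an adjusted p = 0.0709 to 0.0969. ABCF4, the nearest tested gene to HTA11, had 67.6 ± 2.63 and 69.2 ± 4.33 CPM in hta9 hta11 and in the wild type (log2 fold change -0.03). AT1G52750 overlaps HTA9 on the opposite strand. It held 6.21, 10.9, 7.41 and 9.28 CPM in hta9 hta11 libraries 1 to 4, against 4.29, 6.17, 5.12 and 5.57 CPM in wild-type libraries 1 to 4. The groups did not overlap, with the mutant libraries higher, as in 6.23% of all genes tested. The difference of 0.67 on the log2 scale missed the threshold (SE 0.18, adjusted p = 0.072 in edgeR). Since the strand setting of the counting is not given, reads of HTA9 and of AT1G52750 in their overlap may not have been kept apart.

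The genes that place H2A.Z in chromatin or act on it were measured next, 18 genes of the SWR1 and INO80 complexes and of histone chaperones, of which 17 were tested. With edgeR, with DESeq2 and with limma-voom 0 of them passed, while at an unadjusted p under 0.05 edgeR gave 1, SWC4 at -0.21. Over all genes tested 3.74% passed in edgeR and 18.0% had an unadjusted p under 0.05. Their log2 fold changes ran from -0.29 to 0.34 with a median of 0.01, against a median of 0.00 over all genes tested. The members with the highest mean CPM, not divided by length, were NRP1, a chaperone of the NAP1 family, with 90.1 ± 3.82 CPM in hta9 hta11 and 82.6 ± 6.84 CPM in the wild type (log2 fold change 0.13), and INO80, a remodelling ATPase, with 53.8 ± 14.7 and 43.2 ± 11.2 CPM in hta9 hta11 and in the wild type (log2 fold change 0.32, adjusted p = 0.504). PIE1, the ATPase of SWR1, marked the upper end of the range at 0.34, with 35.2 ± 7.99 CPM in hta9 hta11 and 27.8 ± 6.20 CPM in the wild type (adjusted p = 0.392).

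**Figure D4:**
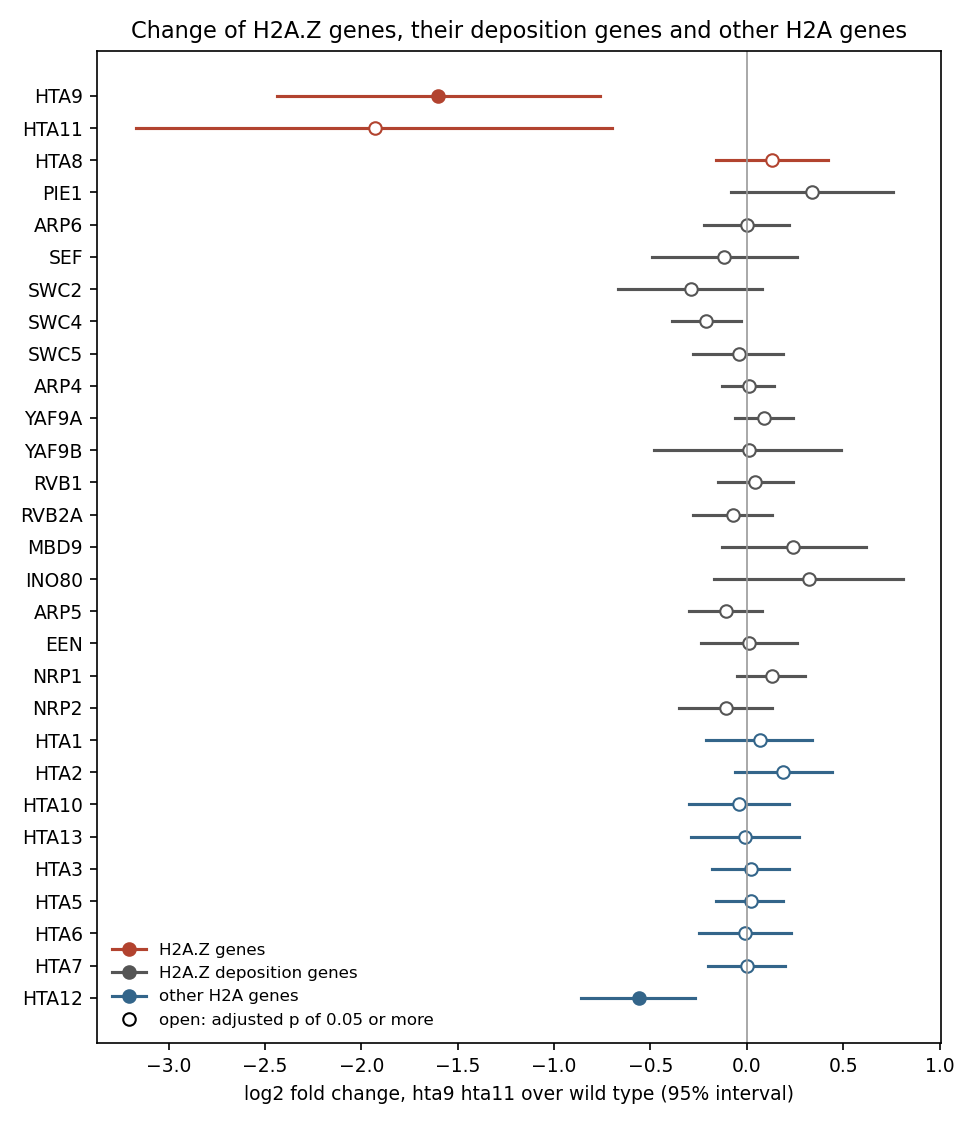
Log2 fold change of hta9 hta11 over wild type with its 95% interval, for the 3 tested H2A.Z genes, 17 tested H2A.Z deposition genes and 9 other H2A genes. Filled points passed an adjusted p of 0.05; only HTA9 at -1.60 and HTA12 at -0.56 are filled.

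H2A.Z transcript was also set against that of the whole H2A family of 13 genes. H2A.Z made up 14.3%, 6.61%, 10.3% and 6.32% of the summed level of H2A genes per kb in hta9 hta11 libraries 1 to 4, against 21.3%, 22.0%, 21.1% and 21.3% in wild-type libraries 1 to 4. The groups did not overlap. With HTA9 and HTA11 lower and the other H2A genes at a median log2 fold change of 0.00, this follows and is not a separate result. By mean level per kb HTA9 ranked 8 of 13 in hta9 hta11 and 3 of 13 in the wild type, HTA11 ranked 11 in hta9 hta11 and 8 in the wild type, and HTA8 ranked 10 in hta9 hta11 and 11 in the wild type. In hta9 hta11 HTA9 was not set apart by its spread from HTA3 of the H2A.X class at 40.9 ± 2.42 CPM per kb or HTA1, a canonical H2A gene, at 27.0 ± 4.36. In the wild type it lay close to HTA10, also a canonical H2A gene, at 118 ± 15.9 CPM per kb, a difference within their spread.

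Of the 9 other H2A genes 1 fell and none rose, where 1.25% of all genes tested fell and 2.49% rose, and their median log2 fold change was 0.00. HTA12, of the H2A.W class that marks heterochromatin, had 5.67 ± 0.802 CPM in hta9 hta11 and 8.42 ± 1.03 CPM in the wild type (SD, n = 4 each; log2 fold change -0.56, adjusted p = 0.0431). Without a single library the call held only without hta9 hta11 library 1 or wild-type library 2. The other 8 genes had log2 fold changes of -0.04 to 0.19.

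**Figure D5:**
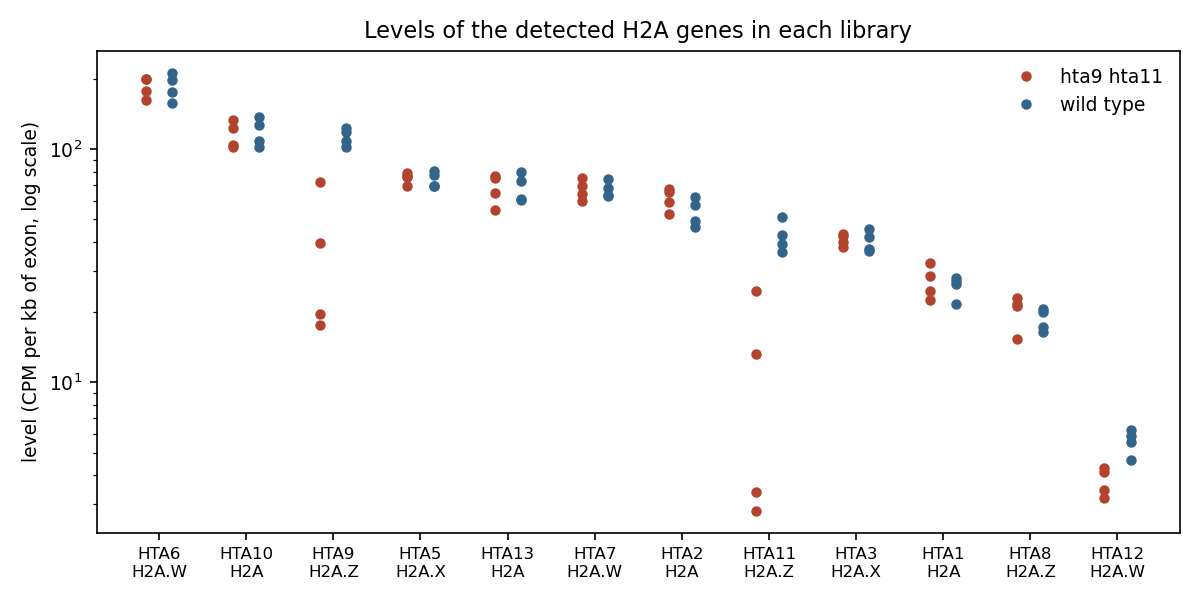
Level of the 12 detected H2A genes in CPM per kb of exon on a log scale, ordered by the wild-type mean, with 1 point per library and hta9 hta11 left of wild type. HTA9, HTA11 and HTA12 have separate point clouds for the genotypes, while HTA8 at 15.4 to 23.1 overlaps.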

How the data were processed

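The authors deposited whole-number counts per gene, with 1 column per library; 0 columns of values were left unused. The submitters' processing notes name the build TAIR10 and the tools HISAT2 2.2.1, fastp 0.23.2 and SAMtools 1.17, besides limma and DESeq2. Per the labels' protocols libraries were poly(A)-selected and directional. How reads were counted, with which strand setting, and how reads with several matches were treated do not appear in the sources used here. The labels list 4 libraries per genotype, which is more than the protocol text names, and all 8 entered the tests. No library repeated another of its genotype within sampling noise (chi-square 12.5 to 45.3 per degree of freedom).

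Groups were taken from the sample titles. Genes were filtered with filterByExpr, scaled with TMM and tested with edgeR 4.0.16 (R 4.3.3), using the quasi-likelihood F test of genotype over 20214 genes, 2-sided, with Benjamini-Hochberg adjustment and a threshold of 0.05. The F statistic gave standard errors and 95% intervals. Log2 fold changes are hta9 hta11 over wild type. The test was checked on simulated counts. The settings tried besides were upper-quartile and RLE scaling, a stricter count filter (1 CPM or more in 4 or more libraries) or none, a block for the replicate number, DESeq2 1.42.0, limma-voom (limma 3.58.1) and leaving out libraries.

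Levels per kb used the union of exons of all transcript models in the RefSeq annotation of TAIR10.1, whose genome gave the sequences. Coding sequences were those of the longest model and were aligned globally. Sums and shares over the members carry no p, although a permutation test had been planned for them, because the members and lists were chosen with earlier results of these data known. Genes were named by a fixed rule: the 4 members; the 4 genes nearest to each of HTA9, HTA11 and HTA8 in centred log2(CPM + 0.5) profile; members of the 2 lists that passed, or the 2 with the highest mean CPM where none did; and MAF5, FLC and QQS. Neighbouring genes were taken by position, and SWC4, PIE1, AT1G52770, UNE15 and AT4G13575 were named after their values were seen.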

Additional observations from a re-analysis of the deposited data

Results flagged for a closer look

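AT5G38005, the noncoding RNA gene whose profile was nearest to that of HTA11, had 1 wild-type library apart from the others of its group. Wild-type library 1 held 5.85 CPM, against 4.96, 4.93 and 4.80 CPM in wild-type libraries 2 to 4, and chance alone flags about 1 in 20 such groups of 4 libraries. Such groups numbered 128, and flags are given only for results printed here. No value of HTA9, HTA11 or HTA8 was flagged in the same way, although the hta9 hta11 libraries of HTA9 and HTA11 were spread over a wide range.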

How the results depend on the processing

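HTA9 did not pass with upper-quartile scaling (log2 fold change -1.58, adjusted p = 0.0504) or with at least 1 CPM in at least 4 libraries (-1.59, adjusted p = 0.054), and ranged from -2.15 to -1.37 with single libraries left out. HTA11 passed in limma-voom (-2.46, adjusted p = 0.0378) and with the replicate number as a block (-2.38, adjusted p = 0.0329), and ranged from -2.73 to -1.62 with single libraries left out. The replicate numbers did not pair all of the libraries. Deviations of same-numbered libraries correlated at 0.50, 0.45, -0.33 and -0.25. Libraries 1 and 2 of hta9 hta11 correlated best with the wild-type library of their own number, libraries 3 and 4 with other numbers. HTA8 stayed above 0 and did not pass in any of its 16 alternatives (adjusted p = 0.283 to 0.89). The same settings, chosen for FLC, MAF5 and AT4G13575 after seeing the data, left FLC and MAF5 passing in all 16, while AT4G13575 did not pass with the replicate block (-0.69, adjusted p = 0.0502). The ratio of the summed H2A.Z level ran from 0.299 to 0.445 and the difference in the HTA8 share from 19.6 to 30.5 percentage points with single libraries left out. Over all genes, 757 changed by edgeR and 1504 by DESeq2, and 208 (without hta9 hta11 library 4) to 1246 (without hta9 hta11 library 1) with single libraries left out. The other H2A genes that changed numbered 0 with upper-quartile scaling, 0 with at least 1 CPM in at least 4 libraries, 0 without hta9 hta11 libraries 1 and 3, and 0 to 1 with single libraries left out. The causes were not tested.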
